A study of Homo sapiens with 12 samples.

Results

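The enzymes that write, copy and remove DNA methylation, and those that write the Polycomb mark on histones, were followed at the RNA level as 9 genes: DNMT1, DNMT3A, DNMT3B, UHRF1, TET1, TET2, TET3, EZH1 and EZH2. They were chosen by gene symbol from a table of raw read counts that lists 43735 genes. All 9 had reads in every library and all 9 were among the 14085 genes tested. RNA came from 12 cultures of the multiple myeloma lines MM1S and MM1R, which share a parental line and differ in their response to glucocorticoids (GC), MM1S being sensitive and MM1R resistant. The 4 groups of 3 cultures were untreated MM1S, MM1S exposed to 1 µM withaferin A (WA) for 3 h, untreated MM1R, and MM1R exposed to the same WA dose and time. WA is a steroidal lactone from the plant Withania somnifera that reacts covalently with cysteine residues of proteins. The labels name the controls as untreated and give no solvent for them. Replicates were cultures of different passage number: MM1S was sampled at 16, 22 and 23, MM1R at 4, 6 and 7. Each number occurs once untreated and once with WA. The lines have no passage in common, so that line and passage cannot be told apart.

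DNA methylation in mammals is set on cytosine, mostly where a guanine follows. DNMT3A and DNMT3B place new marks, DNMT1 copies the pattern to the daughter strand after replication, and UHRF1 recognizes half-methylated DNA and brings DNMT1 to it. The TET dioxygenases oxidize the methylated base as the first step of its removal. EZH2 and EZH1 are the alternative catalytic subunits of Polycomb repressive complex PRC2, which methylates histone H3 at H3K27 and holds genes silent. In multiple myeloma, a tumor of plasma cells, DNA methylation patterns are known to be disturbed and EZH2 has been pursued as a drug target.

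Libraries held between 17625110 and 19368343 counts, and levels are given as CPM, the counts of a gene relative to library size, after TMM scaling for library composition. The summed level of 10 plasma cell markers was 9949 to 18687 CPM, whereas 4 lists of T cell, myeloid, epithelial and fibroblast markers (19 genes) each summed to no more than 20.4 CPM in any library. The defining T cell gene CD3G, the epithelial keratin KRT19 and the fibroblast collagen COL3A1 had 0 reads, while other genes of these lists had some. CD3E, a further T cell receptor gene, reached 11.6 CPM, and the collagen COL1A1 had group means of 0.718 CPM untreated and 4.95 CPM with WA in MM1S and 1.93 and 10.7 CPM in MM1R. The part of such cells in the results was not tested. The 4 stress genes used as a check of WA exposure (HSPA6, DNAJB1, BAG3 and HMOX1) rose in both lines, with a smallest fold change of 23.4 in MM1S and 37 in MM1R. Within MM1S, the cultures of passage 16 stood apart, with correlations of log2 CPM to the others of their group of 0.976 to 0.980, against 0.988 to 0.990 between passages 22 and 23. Within MM1R, passages 4 and 7 were the farthest apart, at 0.980 untreated and 0.983 with WA. In bulk RNA, fewer cells that express a gene and less RNA of it per cell cannot be told apart.

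WA lowered the maintenance pair, DNMT1 and UHRF1, and raised DNMT3B and TET2. Averaged over both lines, these 4 of the 9 genes passed an adjusted p of 0.05 (edgeR quasi-likelihood test with Benjamini-Hochberg adjustment over all genes tested), 2 higher and 2 lower. In the same comparison 28.5% of all genes tested passed, 15.1% higher and 13.4% lower. DNMT3A, TET1, TET3, EZH1 and EZH2 did not pass. Their median change was 0.06 on the log2 scale, beside 0.01 for all genes tested. Within MM1S, 3 of the 9 passed (DNMT3B higher, DNMT1 and UHRF1 lower), where 10.5% of all genes did, 6.25% higher and 4.23% lower. Within MM1R, 4 passed (DNMT3B and TET2 higher, DNMT1 and UHRF1 lower), against 14% of all genes, 7.55% higher and 6.46% lower. The comparisons within the lines share no cultures.

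**Figure D1:**
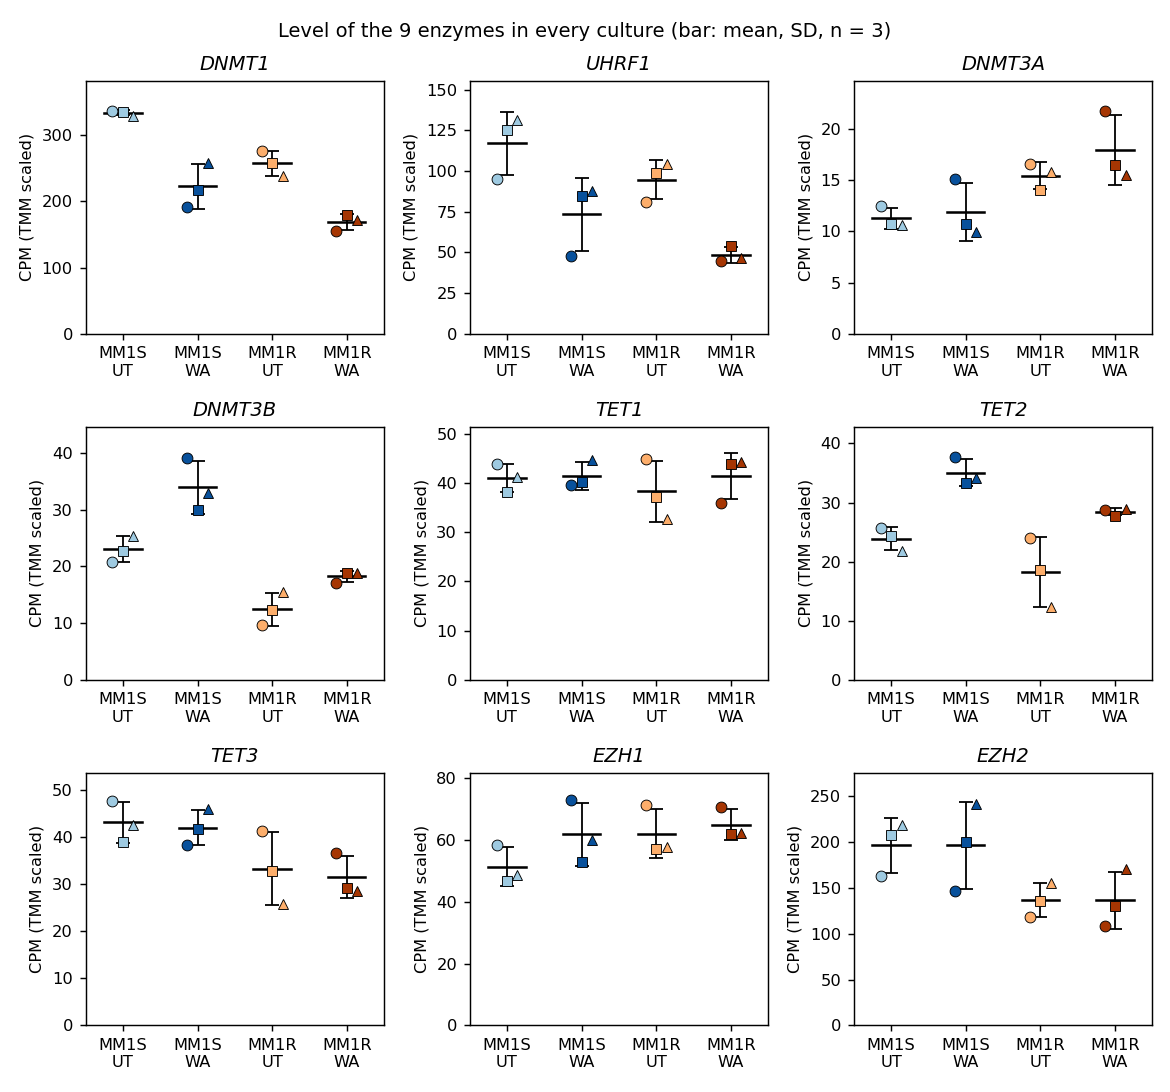
CPM (vertical axis, from 0) of each of the 9 enzymes in the 3 cultures of untreated (UT) and WA-treated MM1S and MM1R, with the mean and SD of each group as black bars and the passages as circles (16 or 4), squares (22 or 6) and triangles (23 or 7). The WA cultures lie below the untreated ones without overlap for DNMT1 and UHRF1 and above them for DNMT3B and TET2, in both lines. Non-overlap in either direction was seen for 30.3% of all genes tested in MM1S and 33.3% in MM1R.

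DNMT1, the maintenance methyltransferase, fell with WA in both lines. In untreated MM1S it stood at 337, 335 and 329 CPM in passages 16, 22 and 23, and with WA at 192, 217 and 258 CPM. In untreated MM1R it stood at 275, 258 and 239 CPM in passages 4, 6 and 7, and with WA at 155, 179 and 173 CPM. Each WA culture was below every untreated culture of its line, where 30.3% of all genes in MM1S and 33.3% in MM1R did not overlap in either direction. The level fell to between 56.5% and 78.5% of the untreated culture of the same passage. The change was -0.59 ± 0.12 (log2, SE) in MM1S (edgeR adjusted p = 0.00626) and -0.61 ± 0.12 in MM1R (edgeR adjusted p = 0.00414). Averaged over the lines it was -0.60 ± 0.08 (edgeR adjusted p = 0.000151), which leaves 66.2% of the untreated level. The call held in both lines with any 1 library left out. Without both cultures of passage 16 the MM1S value was -0.48 (edgeR adjusted p = 0.0534).

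UHRF1, the partner that guides DNMT1 to newly copied DNA, had the largest mean decrease of the 9 genes. In MM1S it went from 94.9, 125 and 131 CPM in passages 16, 22 and 23 to 47.5, 84.9 and 88.0 CPM with WA. In MM1R it went from 81.1, 98.6 and 104 CPM in passages 4, 6 and 7 to 45.0, 54.1 and 46.4 CPM. The untreated and the WA cultures did not overlap in either line, as for 30.3% of all genes in MM1S and 33.3% in MM1R. Passage 16 was the lowest MM1S culture in both conditions. On the log2 scale the change was -0.67 ± 0.20 in MM1S (edgeR adjusted p = 0.0476) and -0.96 ± 0.20 in MM1R (edgeR adjusted p = 0.00701), with a mean of -0.82 ± 0.14 (edgeR adjusted p = 0.000866). The call in MM1R held with any 1 library left out, but not without both cultures of passage 7 (-0.84, edgeR adjusted p = 0.1). The call in MM1S was close to the limit. Its adjusted p by edgeR became 0.148 and 0.163 without untreated MM1S passage 22 or 23 and 0.11 without WA-treated MM1S passage 16. It became 0.0668 and 0.0523 without untreated MM1R passage 6 or 7, and 0.0623, 0.0622 and 0.0564 without WA-treated MM1R passage 4, 6 or 7. With passage as a block it was 0.000538, with only the 6 MM1S libraries in the fit 0.114, and without both cultures of passage 16 it was 0.0359.

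The promoters of these genes are shown because DNMT1, UHRF1 and EZH2 are commonly counted among genes of the replication phase, whose promoters often carry an E2F motif. The windows run from 250 bases before to 50 bases after an annotated start site and were taken from RefSeq on GRCh38.p14, 5′ to 3′ on the gene's strand, with all 9 symbols matched. Capitals mark the letters searched for on both strands: E2F (TTTGGCGC, TTTCCCGC or TTTCGCGC), the CCAAT box (CCAAT) and the antioxidant response element (TGACNNNGC). No searched motif overlapped another in the windows printed. The windows are chr19:10194904-10195203 (minus strand) for DNMT1, the first of 3 annotated for UHRF1 at chr19:4909251-4909550 (plus strand), and the first of 2 for EZH2 at chr7:148884242-148884541 (minus strand).
DNMT1: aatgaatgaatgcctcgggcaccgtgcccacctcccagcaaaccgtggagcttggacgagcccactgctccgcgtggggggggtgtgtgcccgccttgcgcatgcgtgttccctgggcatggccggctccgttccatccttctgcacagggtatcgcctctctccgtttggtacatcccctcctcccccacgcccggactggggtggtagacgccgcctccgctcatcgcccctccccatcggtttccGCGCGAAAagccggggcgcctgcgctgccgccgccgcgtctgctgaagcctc
UHRF1: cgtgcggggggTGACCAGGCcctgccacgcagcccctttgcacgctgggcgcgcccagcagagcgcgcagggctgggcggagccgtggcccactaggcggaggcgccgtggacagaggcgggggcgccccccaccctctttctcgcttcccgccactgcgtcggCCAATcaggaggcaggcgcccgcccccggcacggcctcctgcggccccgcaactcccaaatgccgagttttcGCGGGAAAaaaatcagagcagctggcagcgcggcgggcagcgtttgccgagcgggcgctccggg
EZH2: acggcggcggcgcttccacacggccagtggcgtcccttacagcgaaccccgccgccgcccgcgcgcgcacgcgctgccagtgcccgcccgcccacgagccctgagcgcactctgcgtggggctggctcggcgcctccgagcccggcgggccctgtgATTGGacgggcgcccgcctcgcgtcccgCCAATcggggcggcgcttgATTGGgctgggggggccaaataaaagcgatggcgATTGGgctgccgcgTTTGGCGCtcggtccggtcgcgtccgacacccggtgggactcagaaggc
The E2F letters began at position -2 from the start site in DNMT1, at -14 in the UHRF1 window printed and at -160 in its second window, and at 1 in EZH2. They were found in 2.74% of the 35116 RefSeq promoter windows (3.3% of the 27305 genes with a window) and in none of the windows of the other 6 genes. The CCAAT letters, which 34.6% of windows and 39.7% of genes hold, were found in DNMT3B, UHRF1, TET1, TET3 and EZH2. The antioxidant response letters (13.3% of windows, 16.1% of genes) were found in UHRF1 only. A heat shock element of 3 alternating GAA and TTC triplets, each 2 bases apart (0.49% of windows, 0.608% of genes), was found in none of the 9. Over the 580 tested genes with the E2F letters in any window, 15.5% were lower with WA, beside 14.5% of the 10403 tested genes that have a window. A match of letters is a description of the window and not a bound site.

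DNMT3B, which sets new methylation, moved against DNMT1. In MM1S it rose from 20.8, 22.8 and 25.4 CPM in passages 16, 22 and 23 to 39.1, 29.9 and 33 CPM with WA. In MM1R it rose from 9.58, 12.3 and 15.5 CPM in passages 4, 6 and 7 to 17.1, 18.8 and 18.8 CPM. All WA cultures were above all untreated cultures of their line, where 30.3% of all genes in MM1S and 33.3% in MM1R did not overlap in either direction. The smallest change within a passage was in MM1R passage 7 (121% of the untreated level) and the largest in MM1S passage 16 (186%). This was a log2 fold change of 0.56 ± 0.16 in MM1S (edgeR adjusted p = 0.0395) and 0.55 ± 0.17 in MM1R (edgeR adjusted p = 0.0408), with a mean of 0.56 ± 0.12 (edgeR adjusted p = 0.00275). With passage as a block the edgeR adjusted p was 0.00904 in MM1S and 0.00939 in MM1R. Without the block, the call within each line was close to the limit, and 4 of the 12 fits with a single library left out kept it. It was also lost without some libraries of the other line, which enter the fit but not the comparison. In MM1S the edgeR adjusted p became 0.114, 0.124 and 0.0689 without untreated MM1S passage 16, 22 or 23, and 0.128 and 0.0864 without WA-treated MM1S passage 16 or 23. It became 0.0806 there without untreated MM1R passage 6, and 0.0511 and 0.059 without WA-treated MM1R passage 4 or 6. In MM1R it became 0.0605, 0.0505 and 0.0549 without untreated MM1S passage 22 or 23 or WA-treated MM1S passage 23, and 0.112 and 0.14 without untreated MM1R passage 4 or 6. It became 0.0674, 0.0912 and 0.0917 there without WA-treated MM1R passage 4, 6 or 7. Without both cultures of passage 16 the MM1S value was 0.38 (edgeR adjusted p = 0.266). The mean over both lines kept its call with any 1 library left out.

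DNMT3A, the other enzyme for new methylation, had the lowest mean level of the 9 per kilobase of canonical transcript in every group. With merged exons it stood above TET2 in untreated MM1R (1.12 against 1.11). It stood at 10.6 to 12.4 CPM in untreated MM1S and at 9.88 to 15.1 CPM with WA, and at 14 to 16.6 CPM in untreated MM1R and 15.5 to 21.8 CPM with WA. The treated and untreated cultures overlapped in both lines. The log2 fold change was 0.08 (95% interval -0.31 to 0.47) in MM1S and 0.21 (-0.17 to 0.60) in MM1R, neither past the limit.

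Among the TET enzymes, TET2, which is often mutated in blood cancers, rose while TET1 and TET3 did not pass the test. TET2 stood at 25.7, 24.3 and 21.7 CPM in untreated MM1S passages 16, 22 and 23 and at 37.7, 33.3 and 34.2 CPM with WA. In MM1R it stood at 24.0, 18.5 and 12.2 CPM in untreated passages 4, 6 and 7 and at 28.6, 27.7 and 29.0 CPM with WA. The groups did not overlap in either line, as for 30.3% of all genes in MM1S and 33.3% in MM1R. The untreated MM1R cultures were spread wider (SD 5.88 CPM) than the WA cultures (SD 0.635 CPM). TET2 had a log2 fold change of 0.64 ± 0.18 in MM1R (edgeR adjusted p = 0.0316) and 0.59 ± 0.13 averaged over the lines (edgeR adjusted p = 0.00341). In MM1S it was 0.55 ± 0.18 with an edgeR adjusted p of 0.066, which became 0.0165 with passage as a block, 0.0256 and 0.0117 without untreated MM1R passage 4 or 7, and 0.0374 with DESeq2. These 2 were the only fits of 12 with a single library left out that called it in MM1S, and the edgeR adjusted p reached 0.205 in the others. Without both cultures of passage 16 the edgeR adjusted p in MM1S was 0.172. In MM1R the adjusted p by edgeR became 0.0912 and 0.0789 without untreated MM1R passage 6 or 7, and 0.0797, 0.0633 and 0.0759 without WA-treated MM1R passage 4, 6 or 7. Without both cultures of passage 7 the MM1R value was 0.43 (edgeR adjusted p = 0.143). With all libraries and passage as a block the edgeR adjusted p in MM1R was 0.00581.

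TET1 stood at 38.2 to 43.9 CPM in untreated MM1S and 39.6 to 44.7 CPM with WA, and at 32.8 to 45.0 and 36.1 to 44.4 CPM in MM1R. Its log2 fold change was 0.01 (95% interval -0.27 to 0.29) in MM1S and 0.11 (-0.17 to 0.39) in MM1R. TET3 stood at 38.9 to 47.6 and 38.3 to 45.8 CPM in MM1S, and at 25.7 to 41.1 and 28.5 to 36.6 CPM in MM1R. Its log2 fold change was -0.04 (-0.38 to 0.31) in MM1S and -0.08 (-0.43 to 0.27) in MM1R. In the untreated MM1R cultures all 3 TET genes were highest in passage 4 and lowest in passage 7. TET3 shares 3.23% of its canonical transcript with exons of a neighbouring gene on the same strand, so that its count may hold reads of both.

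The make-up of both families shifted within every passage. Per kilobase of the canonical transcript, TET2 made up 22.4% to 26.0% of the summed TET level in untreated MM1S and 29.7% to 35.0% with WA. In MM1R its share went from between 18.7% and 23.6% to between 29.3% and 30.6%. DNMT3B made up 6.86% to 8.44% of the summed level of the 3 DNA methyltransferases in untreated MM1S and 13.2% to 19.2% with WA, and 3.93% to 7.06% and 10.8% to 11.2% in MM1R. No WA culture overlapped an untreated culture of its line in either share. DNMT1 made up most of the DNA methyltransferase sum, with means of 90.7% untreated and 82.0% with WA in MM1S and 91.5% and 84.0% in MM1R. A fall of DNMT1 therefore raises the share of DNMT3B as well as a rise of DNMT3B does. The size of each share depends on the transcript length used. These shares rest on the same counts as the tests above and were not tested separately.

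**Figure D2:**
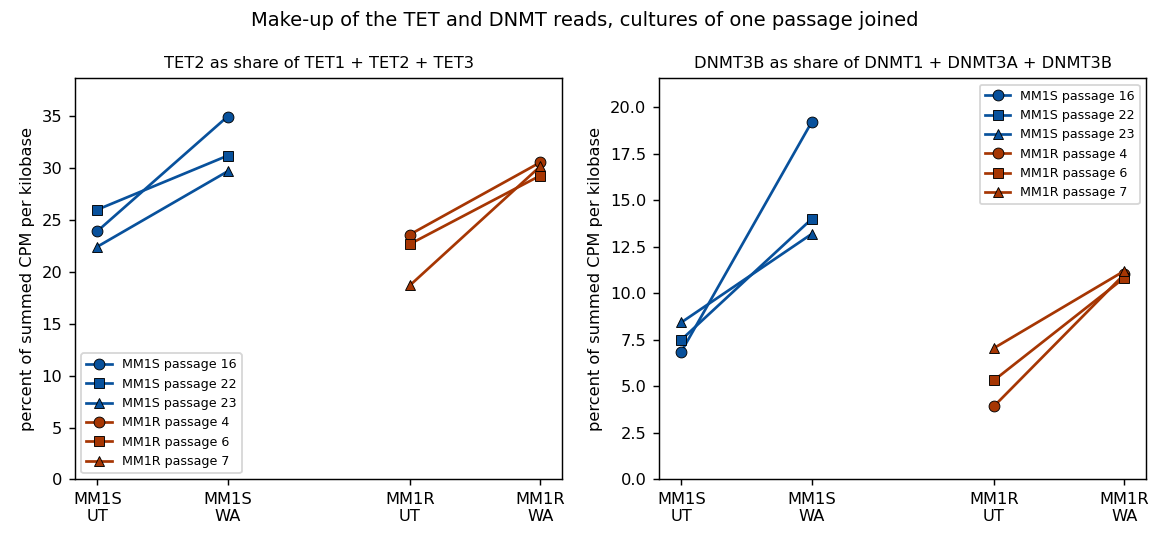
Share (percent of summed CPM per kilobase, vertical axis from 0) of TET2 among the 3 TET genes (left) and of DNMT3B among the 3 DNA methyltransferases (right), with the untreated (UT) and WA culture of each passage joined by a line. All 6 lines rise in both panels, and MM1S passage 16 has the highest shares with WA, 35.0% and 19.2%.

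The catalytic subunits of PRC2 did not pass the test in either line. EZH2, the main form of dividing cells, stood at 162, 207 and 219 CPM in untreated MM1S passages 16, 22 and 23 and at 147, 200 and 241 CPM with WA. In MM1R it stood at 118, 136 and 156 CPM in untreated passages 4, 6 and 7 and at 108, 130 and 170 CPM with WA. The untreated and the treated cultures overlapped, and the same passage was lowest and the same highest in both conditions of a line. Its log2 fold change rounded to 0.00 in both lines (-0.00020 in MM1S and -0.0020 in MM1R), with a 95% interval of -0.42 to 0.42 in each, and the mean over the lines had an interval of -0.30 to 0.30. With passage as a block it was -0.02 ± 0.08 (SE) in MM1S, -0.02 ± 0.09 in MM1R and -0.02 ± 0.06 in the mean, and the changes within a passage lay between -0.15 and 0.14. EZH1, the form found more in resting cells, stood at 46.8 to 58.4 CPM in untreated MM1S and 52.8 to 72.9 CPM with WA, with a log2 fold change of 0.27 ± 0.14 (edgeR adjusted p = 0.257). With passage as a block this became 0.26 (edgeR adjusted p = 0.0368), and the mean over both lines 0.17 (edgeR adjusted p = 0.0369, beside 0.231 without the block). In MM1R EZH1 stood at 57.1 to 71.2 and 61.8 to 70.6 CPM, with a log2 fold change of 0.07 (95% interval -0.23 to 0.37).

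**Figure D3:**
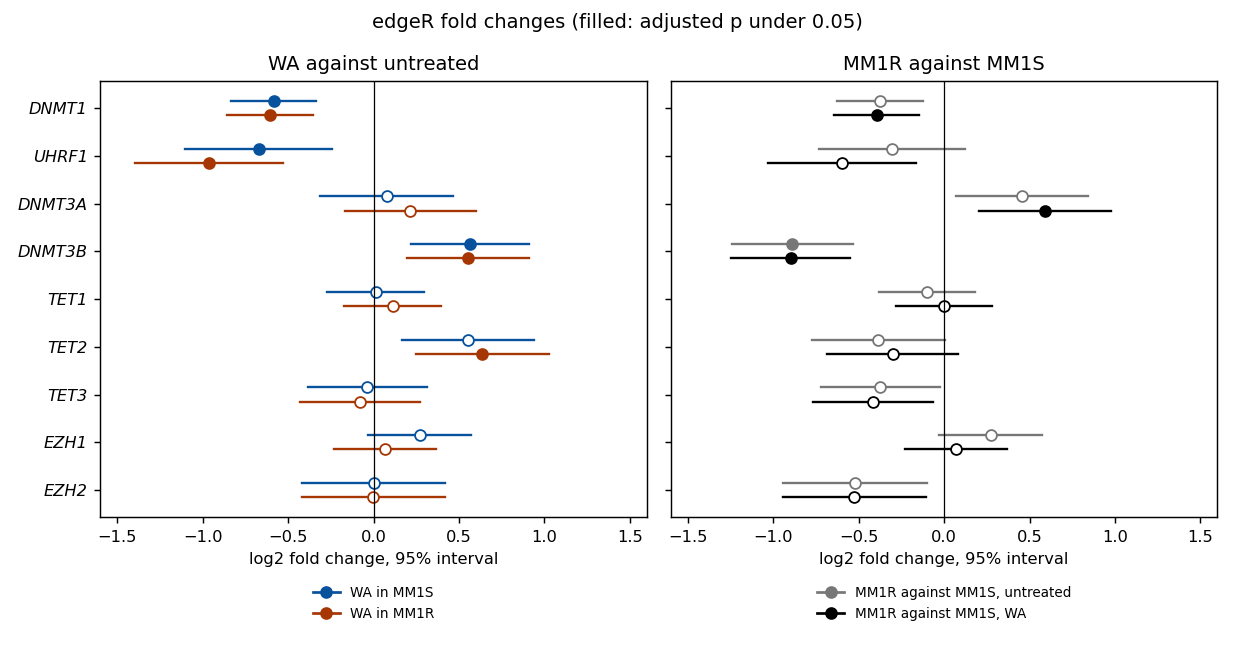
Log2 fold changes with 95% intervals (horizontal axis) of the 9 enzymes, for WA against untreated cells in MM1S (blue) and MM1R (brown) on the left and for MM1R against MM1S, untreated (grey) and with WA (black), on the right. Filled points have an adjusted p under 0.05. DNMT1 and UHRF1 lie below 0 and DNMT3B above it with WA in both lines, and DNMT3B is the only enzyme past the limit between the lines in both conditions.

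A difference between MM1S and MM1R in the effect of WA was not detected for any of the 9. In the test of that contrast 0 of the 9 and 0 of the 14085 genes passed an adjusted p of 0.05 by edgeR (0% of genes tested), with 97 genes and 0 of the 9 below 0.05 before adjustment. By DESeq2 1 gene passed, none of the 9, and 76 genes and 0 of the 9 were below 0.05 before adjustment. The intervals were wide. For DNMT1 the log2 difference between the lines was -0.02 (95% interval -0.37 to 0.33), for UHRF1 -0.29 (-0.90 to 0.32), for DNMT3B -0.01 (-0.51 to 0.49) and for TET2 0.08 (-0.46 to 0.63).

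Between the untreated lines, DNMT3B was the only one of the 9 past an adjusted p of 0.05, where 11.9% of all genes passed. It was lower in MM1R, with 9.58 to 15.5 CPM against 20.8 to 25.4 CPM in MM1S, and the groups did not overlap. Its log2 fold change was -0.89 ± 0.17 (edgeR adjusted p = 0.00338), which is 54.0% of the MM1S level. Under the stricter limits that the study used between lines (adjusted p of 0.01 with a change of at least 1 log2 unit), 0 of the 9 passed by edgeR, beside 2.97% of all genes, and 5 of the 9 had an unadjusted p under 0.05, as did 25.9% of all genes. DESeq2 gave the same DNMT3B call at an adjusted p of 0.05 and added DNMT1. DNMT1 was lower in MM1R without overlap, at a log2 fold change of -0.38 ± 0.12 (edgeR adjusted p = 0.0509). Its edgeR adjusted p became 0.0266 and 0.0398 without WA-treated MM1S passage 16 or 23. With each other library left out DNMT1 did not pass, and the edgeR adjusted p reached 0.16. EZH2 stood at -0.52 ± 0.20 (edgeR adjusted p = 0.104) and DNMT3A at 0.46 ± 0.18 (edgeR adjusted p = 0.125), again with groups that did not overlap. Non-overlap of this kind was common, at 32.3% of all genes between the untreated lines and 30.3% and 33.3% for WA in MM1S and in MM1R. TET2 (-0.39) and TET3 (-0.37) did not pass with all libraries, and their edgeR adjusted p became 0.0266 and 0.0395 without untreated MM1R passage 4. With each other library left out neither passed, and their edgeR adjusted p reached 0.51 and 0.436. Without both MM1S cultures of passage 16, DNMT1, DNMT3A, UHRF1 and EZH2 passed too (edgeR adjusted p of 0.0459, 0.0435, 0.0303 and 0.0184, respectively). Without both MM1R cultures of passage 7 none of these passed (edgeR adjusted p of 0.167, 0.23, 0.376 and 0.0868, in the same order).

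With WA in both lines, 3 of the 9 passed, against 12% of all genes, and 0 under the study's limits by edgeR (3.04% of all genes), with 6 of the 9 and 28.0% of all genes at an unadjusted p under 0.05. DNMT3B was lower in MM1R (-0.90 ± 0.16, edgeR adjusted p = 0.00282), at 17.1 to 18.8 CPM against 29.9 to 39.1 CPM. That call, like the one in untreated cells, held with any 1 library left out. DNMT1 was lower in MM1R (-0.40 ± 0.12, edgeR adjusted p = 0.041) and DNMT3A higher (0.59 ± 0.18, edgeR adjusted p = 0.0472). For DNMT1 the edgeR adjusted p became 0.0623 and 0.0581 without untreated MM1S passage 22 or 23, 0.0985 and 0.192 without WA-treated MM1S passage 22 or 23, and 0.0585 without untreated MM1R passage 6. Without WA-treated MM1R passage 4, 6 or 7 it became 0.139, 0.0753 and 0.106. For DNMT3A it became 0.0656 and 0.0605 without untreated MM1S passage 22 or 23, 0.178 and 0.176 without WA-treated MM1S passage 22 or 23, and 0.0523, 0.0681 and 0.055 without untreated MM1R passage 4, 6 or 7. Without WA-treated MM1R passage 4 or 6 it became 0.19 and 0.0706. UHRF1 (-0.60) and EZH2 (-0.53) did not pass with all libraries by edgeR, UHRF1 passed with DESeq2 (adjusted p = 0.0377), and their edgeR adjusted p became 0.00239 and 0.0177 without WA-treated MM1S passage 16. With each other library left out UHRF1 and EZH2 did not pass, and their edgeR adjusted p reached 0.254 and 0.337. Without both cultures of MM1S passage 16 their edgeR adjusted p was 0.00053 and 0.00984. Without both cultures of MM1R passage 7 it was 0.194 and 0.0578, and DNMT1 and DNMT3A stood at 0.0965 and 0.0517. In this comparison, DNMT1, DNMT3A, DNMT3B, TET2 and TET3 had groups that did not overlap, as did 29.1% of all genes.

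Levels between the genes are compared here as CPM per kilobase of canonical transcript. In untreated MM1S the order was EZH2 (61.2 to 82.5), DNMT1 (62.4 to 63.9), UHRF1 (24.4 to 33.7), EZH1 (10.1 to 12.6), DNMT3B (4.80 to 5.86), TET1 (3.98 to 4.57), TET3 (3.23 to 3.95), TET2 (2.27 to 2.68) and DNMT3A (1.13 to 1.32). EZH2 and DNMT1 overlapped and the other neighbours in that order did not. In untreated MM1R, EZH2 (44.6 to 58.6) and DNMT1 (45.2 to 52.2) overlapped again, followed by UHRF1 (20.8 to 26.8) and EZH1 (12.3 to 15.4). TET1 (3.41 to 4.68), DNMT3B (2.21 to 3.56) and TET3 (2.13 to 3.41) came next, with DNMT3B overlapping both of the others. TET2 (1.28 to 2.50) overlapped DNMT3B, TET3 and DNMT3A (1.49 to 1.76). With WA, DNMT1 per kilobase was below EZH2 without overlap in both lines, at 36.4 to 49.0 against 55.3 to 91.0 in MM1S and 29.5 to 34.0 against 40.8 to 64.2 in MM1R. UHRF1 then overlapped EZH1 in both lines. The order of EZH2, DNMT1 and UHRF1 depends on the length used: with all annotated exons merged, untreated MM1S had 22.8 for UHRF1, 21.7 for DNMT1 and 18.2 for EZH2.

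The position of each gene is given on GRCh37 from the GENCODE annotation, with the exons of its canonical transcript. DNMT1 lies on chromosome 19 from 10244018 to 10341962 (minus strand, 41 exons) and UHRF1 on chromosome 19 from 4903092 to 4962165 (plus strand, 18 exons). DNMT3A lies on chromosome 2 from 25450724 to 25565459 (minus strand, 23 exons) and DNMT3B on chromosome 20 from 31350191 to 31397165 (plus strand, 23 exons). TET1 lies on chromosome 10 from 70320094 to 70454244 (plus strand, 12 exons), TET2 on chromosome 4 from 106067032 to 106200973 (plus strand, 11 exons) and TET3 on chromosome 2 from 74212037 to 74335303 (plus strand, 12 exons). EZH1 lies on chromosome 17 from 40852293 to 40897067 (minus strand, 21 exons) and EZH2 on chromosome 7 from 148504349 to 148581413 (minus strand, 20 exons). Counts were summed over whole genes, so that isoforms were not separated.

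Of 14 tested partners and readers of DNA methylation, 0 were higher and 7 lower in the mean WA effect by edgeR, beside 15.1% and 13.4% of all genes. The list median was -0.21, beside 0.01 for all genes tested. The count of lower genes lay between 3 and 7 over the 21 alternatives run. CDCA7 (-0.61 ± 0.12, edgeR adjusted p = 0.0023) and HELLS (-0.34 ± 0.08, edgeR adjusted p = 0.00376), which form a chromatin remodeller needed for DNA methylation, were among those lower. ZBTB24 (-0.49), a regulator of CDCA7, and ZBTB38 (-0.65), a zinc finger protein that binds methylated DNA, were lower too. Between the untreated lines MBD3, a subunit of the NuRD complex, was higher in MM1R (0.66 ± 0.13, edgeR adjusted p = 0.00476). ZBTB33, which encodes the methyl-binding factor Kaiso, was lower (-0.37 ± 0.11, edgeR adjusted p = 0.0383). The ZBTB33 call was lost with 7 of the 12 libraries each left out, and its adjusted p reached 0.128 over all alternatives.

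Of 17 tested genes for active demethylation and base excision repair, 2 were higher and 4 lower in the mean WA effect, with a median of -0.14, where 28.5% of all genes passed. The count of lower genes ranged from 2 to 5 with single libraries left out and from 2 to 8 over all alternatives. GADD45G (1.55 ± 0.24) and GADD45A (0.76 ± 0.14), stress-induced genes that have been linked to demethylation, were the 2 higher ones, GADD45G from low levels of 0.758 to 1.41 CPM in untreated cells. APEX1 (-0.55 ± 0.09), the endonuclease that cuts at abasic sites, and LIG3 (-0.43 ± 0.10), a DNA ligase, were lower. Between the untreated lines, the glycosylases NEIL2 and NEIL1 (1.19) were higher in MM1R and NEIL3 (-0.55) was lower. NEIL2 was near the limit of detection, with at most 3 reads in any untreated MM1S library and at most 13 in MM1R, and no fold change is given for it. These calls were lost with 2, 8 and 4 of the 12 libraries each left out for NEIL2, NEIL1 and NEIL3. The methionine and one-carbon cycle supplies the methyl donor S-adenosylmethionine. Of its 11 tested genes, 3 were higher and 3 lower in the mean WA effect, beside 15.1% and 13.4% of all genes. With single libraries left out 2 to 4 were higher and 1 to 2 lower, so that the count of 3 lower was not reached in any of these fits. Among them, MTHFD2 (0.73 ± 0.15), a mitochondrial folate enzyme, and MAT2A (0.31 ± 0.09), the synthase of S-adenosylmethionine, were higher, and the cytoplasmic folate enzyme MTHFD1 (-0.43 ± 0.11) was lower. The call of MAT2A was lost with 5 of the 12 libraries each left out.

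In the Polycomb system the counts were mixed in direction. They stand beside 15.1% higher and 13.4% lower among all genes tested in the mean WA effect. Of 10 tested core and accessory subunits of PRC2, 0 were higher and 2 lower in the mean WA effect by edgeR, with a median of -0.14 and 1 to 3 lower when single libraries were left out. The 2 were AEBP2 (-0.40 ± 0.11) and RBBP7 (-0.24 ± 0.08), an accessory subunit and a histone-binding subunit, while the core subunits EED (-0.22) and SUZ12 (-0.19) did not pass. RBBP7 was higher in untreated MM1R than in MM1S (0.38 ± 0.11, edgeR adjusted p = 0.0379). The RBBP7 calls were lost with 8 of the 12 libraries each left out for WA and with 6 for the lines. Of 23 tested subunits of PRC1, the complex that ubiquitylates histone H2A, 5 were higher and 4 lower, with 3 to 5 higher and 1 to 4 lower when single libraries were left out. RYBP (0.63 ± 0.15), PCGF3 (0.74 ± 0.20) and PHC3 (0.39 ± 0.11) were among the higher and AUTS2 (-0.82 ± 0.19) had the largest decrease of the genes of this list past the limit. The PCGF3 call was lost without untreated MM1R passage 6. PCGF3 had the largest difference between the untreated lines of the Polycomb lists, at 2.62 to 5.26 CPM in MM1R against 15.6 to 16.5 CPM in MM1S (-2.15 ± 0.30, edgeR adjusted p = 0.000456). Of 7 tested genes that remove Polycomb marks, 2 were higher and 1 lower, with 1 to 2 higher and 0 to 1 lower when single libraries were left out. KDM6B (0.92 ± 0.16, edgeR adjusted p = 0.000994) and KDM6A (0.26 ± 0.08), the demethylases of H3K27, were the higher ones and ASXL1 (-0.28 ± 0.08), a subunit of the H2A deubiquitinase, the lower. KDM6A was higher in untreated MM1R than in MM1S (0.82 ± 0.12, edgeR adjusted p = 0.000515), and so was ASXL3 (1.35 ± 0.39, edgeR adjusted p = 0.0409). The WA calls of KDM6A and ASXL1 were lost with 6 and 2 of the 12 libraries each left out, and the line call of ASXL3 with 6.

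Of 23 tested S phase and E2F target genes, 0 were higher and 15 lower in the mean WA effect by edgeR, beside 15.1% and 13.4% of all genes. The list median was -0.41, beside 0.01 for all genes tested. Within MM1S 3 were lower and within MM1R 8, beside 4.23% and 6.46% of all genes. These list counts ranged from 0 to 3 and from 1 to 13 with single libraries left out, and from 0 to 15 and 0 to 18 over all alternatives. The number lower in the mean effect lay between 8 and 18 over the 21 alternatives. CCNE1 (-1.15 ± 0.19), which encodes the cyclin of S phase entry, and the replicative helicase subunits MCM4 (-0.59), MCM7 (-0.48) and MCM3 (-0.55) had the smallest p of the list, and the polymerase gene POLA1 was lower in untreated MM1R than in MM1S (-0.52 ± 0.13), a call that was lost with 4 of the 12 libraries each left out. The summed level of the list was 5053, 6238 and 6655 CPM in untreated MM1S passages 16, 22 and 23 and 3532, 5487 and 5213 CPM with WA. In MM1R it was 4309, 5326 and 5782 CPM in untreated passages 4, 6 and 7 and 3298, 4244 and 4002 CPM with WA. Passage 16 of MM1S and passage 4 of MM1R, the lowest of their groups in this sum, were also the lowest for UHRF1 and EZH2 in both conditions. DNMT1 differed, as these passages were the highest of their groups untreated (337 and 275 CPM) and the lowest with WA (192 and 155 CPM). The part of the replication genes in the changes of DNMT1 and UHRF1 was not tested.

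**Figure D4:**
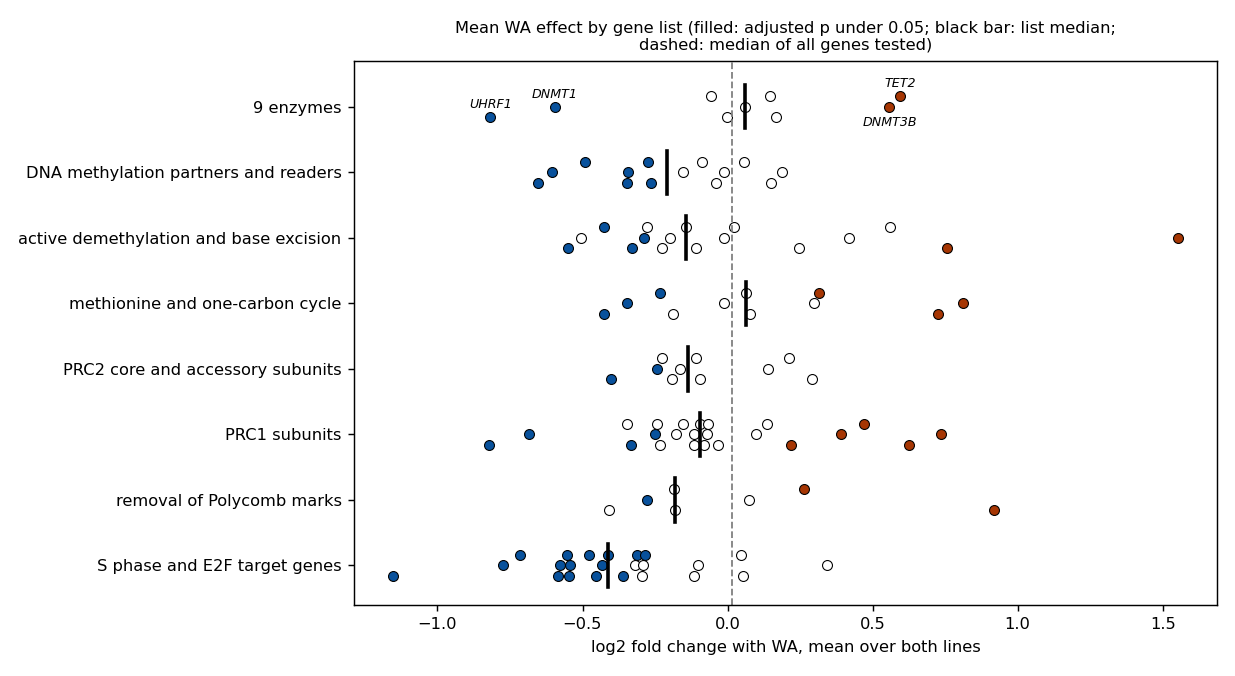
Log2 fold change with WA, mean over both lines (horizontal axis), of each tested gene of the 9 enzymes and 7 related lists, filled blue (lower) or brown (higher) at an adjusted p under 0.05 and open otherwise, with the list median as a black bar and the median of all genes tested (0.01) as a dashed line. The S phase list has 15 of 23 genes lower and 0 higher, the partners of DNA methylation 7 of 14 lower and 0 higher, and the other lists have genes on both sides or few past the limit. Among all genes tested 13.4% were lower and 15.1% higher.

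For the 5 members past the limit in any comparison, the genes with the most similar pattern over the 12 libraries were found by the root mean square difference of centred log2 CPM. For DNMT1 these were PTCD3 (0.11), EXOC2 (0.11) and DHX15 (0.12), and for UHRF1 ESPL1 (0.10), ABCE1 (0.12) and RPIA (0.12). For DNMT3B they were SLC8B1 (0.17), S100A10 (0.17) and MICAL2 (0.20), and for TET2 KIAA1109, GOLGB1 and CHD6 (0.12 each). For DNMT3A they were GPNMB (0.08), CHST11 (0.12) and LOC100420587 (0.13). The same measure for the spread of each member around its own mean was 0.37 for DNMT1, 0.53 for UHRF1, 0.56 for DNMT3B, 0.42 for TET2 and 0.33 for DNMT3A.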

How the data were processed

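RNA from 12 cultures was sequenced as paired ends, and the authors deposited raw gene-level counts made with STAR 2.7.3a on hg19, with read quality checked by FastQC 0.11.5. The counts carry no normalization, and the annotation and strand setting of the counting are not given in the sources used here. The p-values measure the spread between cultures of different passage. A further deposited table of the same counts divided by DESeq2 size factors was not used. Groups, passages, dose and time came from the sample labels.

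Genes were kept with filterByExpr of edgeR 4.0.16 (minimum count 10), scaled with TMM and tested in 1 quasi-likelihood fit of all 12 libraries in R 4.3.3, with Benjamini-Hochberg adjustment over 14085 genes and calls at an adjusted p of 0.05. Comparisons were WA against untreated in each line, the mean and the difference of these, and MM1R against MM1S in each condition. Changes within a passage used CPM with a pseudocount of 0.5. The fits were checked on simulated counts. Deviations from the group mean of the untreated and the WA culture of a passage correlated at 0.69, 0.24 and 0.41 for MM1S passages 16, 22 and 23 and at 0.36, 0.16 and 0.19 for MM1R passages 4, 6 and 7, so that the passage numbers of the labels were taken to pair the cultures. For MM1S passage 22, cultures of another passage were closer (0.33 and 0.28). The main fit held no term for passage, since the methods of the study name none, so its p-values do not use this pairing. The fits with passage as a block do.

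Alternatives were DESeq2 1.42.0 and its size factors, no filter or at least 10 reads in every library, passage as a block, an adjusted p of 0.01, only the libraries compared, and each library left out in turn. Leaving out both cultures of MM1S passage 16 or of MM1R passage 7 was chosen after seeing the data. The 9 genes and the related lists were chosen with earlier results of these data known. From each related list the text names up to 4 genes of smallest p past the limit in the mean WA effect and up to 3 between the untreated lines. A gene that this rule names is not reported here. EED and SUZ12, the PRC2 core, were named after their values were seen.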

Additional observations from a re-analysis of the deposited data

How the results depend on the processing

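Among the values of the 9 genes under the alternatives, 930 kept their direction and their side of the limit, 29 gained a call, 65 lost one and 74 changed sign. No value that changed sign was past the limit, the largest was 0.17 on the log2 scale and the smallest adjusted p among them was 0.64. The 4 calls in the mean WA effect held in all 21 alternatives. The cause of the changes below was not tested.

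The number of the 9 genes called between the untreated lines was 2 with DESeq2 size factors, no filter, at least 10 reads in every library, DESeq2 or only the libraries compared, against 1. Between the WA-treated lines it was 5 with no filter and 1 with at least 10 reads, an adjusted p of 0.01 or only the libraries compared, against 3, and DESeq2 added UHRF1. For WA in MM1S it was 1 at an adjusted p of 0.01, against 3, TET2 was added with no filter (adjusted p = 0.0191 by edgeR) and with DESeq2 (0.0374), and with only the libraries compared UHRF1 was lost (0.114) and TET2 added (0.0246), and for WA in MM1R 2 at that limit or with only the libraries compared, against 4. With both cultures of MM1S passage 16 left out it was 1 for WA in MM1S and 5 between the lines in each condition, and without those of MM1R passage 7 it was 2 for WA in MM1R and 1 between the WA-treated lines. With single libraries left out it ranged from 1 to 4 for WA in MM1S, 2 to 4 for WA in MM1R, 1 to 3 and 1 to 5 between the untreated and the WA-treated lines, and was 4 in the mean effect and 0 for the difference between the lines in each case. With passage as a replicate block it was 5 for WA in MM1S by edgeR, with TET2 and EZH1 added, EZH1 was added in the mean effect (DESeq2 with the block added TET2 only), and no other call changed. No paired analysis was possible between the lines because they share no passage.

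The sign changes on the log2 scale were as follows. For WA in MM1S, TET1 was -0.0066 with DESeq2 size factors or DESeq2, -0.011 with no filter and -0.0069 with DESeq2 and the block. With at least 10 reads, EZH2 was 0.0070 in MM1S, 0.036 in MM1R, 0.021 in the mean and 0.029 in the difference between the lines, where DNMT1 was 0.0079 and DNMT3B 0.020, and TET1 was 0.026 between the WA-treated lines. In that difference DNMT3B was 0.00035 with size factors, 0.00071 with DESeq2, 0.014 with the edgeR block and 0.024 with the DESeq2 block, and EZH2 was 0.0063, 0.0064 and 0.0080 with size factors, DESeq2 and its block. TET1 was 0.0072 between the WA-treated lines with only those libraries. Without passage 16, DNMT3A was -0.053, TET3 0.10 and EZH2 0.052 for WA in MM1S, and TET3 0.012 and EZH2 0.024 in the mean. Without passage 7, TET1 was -0.021 for WA in MM1R and -0.0065 in the mean.

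With single libraries left out, values for WA in MM1S ranged from -0.13 to 0.19 for DNMT3A, -0.046 to 0.058 for TET1, -0.11 to 0.041 for TET3 and -0.18 to 0.17 for EZH2. For WA in MM1R they ranged from -0.23 to 0.10 for TET3, -0.00026 to 0.18 for EZH1 and -0.17 to 0.14 for EZH2. Between the WA-treated lines they ranged from -0.039 to 0.088 for TET1 and -0.034 to 0.20 for EZH1, and in the mean from -0.14 to 0.032 for TET3 and -0.091 to 0.085 for EZH2. In the difference between the lines they ranged from -0.12 to 0.10 for DNMT1, -0.030 to 0.34 for DNMT3A, -0.17 to 0.17 for DNMT3B, -0.0020 to 0.23 for TET1, -0.13 to 0.33 for TET2, -0.20 to 0.14 for TET3 and -0.18 to 0.17 for EZH2. With 3 cultures per group, intervals for the members were wide, and a change that was not called is not shown to be absent.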
